A study of Schizosaccharomyces pombe with 20 samples.

Results

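The array used to follow splicing in fission yeast, *Schizosaccharomyces pombe*, carries a small set of probes for genes that encode no protein, and this set is described here over all strains. The members are the 126 rows of the deposited table whose name ends in "ncRNA", among 15208 probes other than controls, of which 5098 lie in exons, 4885 in introns, 4694 on exon junctions and 405 on junctions that skip an exon. By their identifiers, 68 members are nuclear tRNA genes, 25 are mitochondrial tRNA genes, 27 are small nucleolar RNA (snoRNA) genes and 6 carry a small nuclear RNA (snRNA) identifier. A symbol or locus tag of 100 members was found in the RefSeq gene table (assembly ASM294v3), and the other 26 are named as in the files. The table has 1 probe per member, and the choice of members used no measured value.

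On each of 20 arrays, cDNA made from total RNA of a haploid deletion strain (Bioneer library, KanR in place of the gene) was labelled with Cy3 and hybridised beside Cy5-labelled cDNA of the wild-type strain ED666. All cultures grew in YES medium at 30 °C to mid-log phase. A pair of separately grown cultures was measured for Δaar2, Δpwi1 and Δsmd3 (known splicing factors), for Δctr1, ΔSPAC18G6.13 and ΔSPAC20H4.06c (linked in the study to nuclear RNA silencing), and for Δppn1 and Δssu72 (3' end processing factors). For Δash2, Δswd1, Δpht1 and ΔSPCC162.01c there was 1 array each. Each deletion was represented by 1 library strain, and no dye was swapped, so a dye effect of a probe and an effect of the strain on that probe cannot be told apart within a strain. All values are log2 ratios of deletion strain over wild type, and 0 means no difference.

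The exon probe of the deleted gene lay between -1.19 and -6.45 on 14 arrays. It was -0.50 and -0.93 on the arrays labelled Δsmd3, -0.41 and -0.26 on those labelled ΔSPAC18G6.13, 0.59 on the array labelled ΔSPCC162.01c and -0.86 on replicate 2 of Δctr1, against -4.71 on its replicate 1. Results from these 6 arrays belong to the libraries so labelled, and counts without them are given where they differ. Each array gave a value for 85 to 125 members, and 65 members had a value on all 20. The array labelled ΔSPCC162.01c stood apart, with 125 members measured against 85 to 112 elsewhere. Nuclear tRNA genes had the largest number of empty values, with 35 to 56 of 68 measured on the other 19 arrays. Of the 6 snRNA identifiers, 1 to 5 were measured on these. On each array 24 or 25 of the 25 mitochondrial tRNA genes and 22 to 27 of the 27 snoRNA genes were measured. snu2 and snoR54b had a value only on the ΔSPCC162.01c array, and snu5 and snu32 only there and on replicate 2 of Δaar2. No source used here says why values are empty.

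Transfer RNAs carry amino acids to the ribosome. In the nucleus they are made by RNA polymerase III and trimmed at both ends, and mitochondria transcribe and use a set of their own. Small nucleolar RNAs guide chemical modification and cutting of ribosomal RNA, and several are released from the introns of other genes, so that their making passes through splicing. The spliceosomal snRNAs U1, U2, U4 and U5 are part of the RNA core of the splicing machinery. The genes snu3 and snu32 encode U3, which acts in ribosomal RNA processing. Many tRNAs are encoded by several near-identical genes, and probes for such copies may read one another's RNA.

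The level of the noncoding genes followed the replicate number of the array more closely than the strain. On the 8 replicate 2 arrays the median over all members lay between -1.12 and -0.62, and on the replicate 1 arrays of the same 8 strains it lay between -0.44 and 0.29, so the ranges did not overlap. On the 4 lone arrays, which carry the replicate number 1, it lay between -0.56 and 0.27. The median of the exon probes stayed between -0.06 and 0.05 on all 20 arrays. The deposited columns also differed in centring, since the median over all spots was exactly 0 on each replicate 2 array and between -0.03 and 0.01 on the replicate 1 arrays. The part of the array batch in the shift was not tested. Cultures were measured in bulk, where fewer cells holding an RNA and less of it per cell cannot be told apart.

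**Figure D1:**
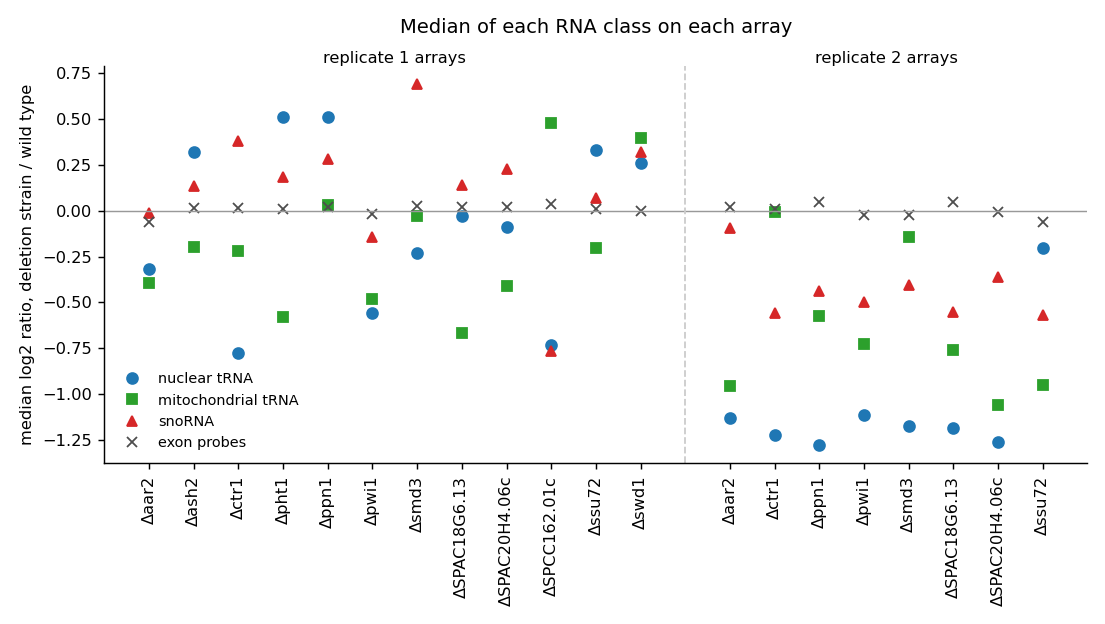
Median log2 ratio (deletion strain over wild type, y axis) of nuclear tRNA, mitochondrial tRNA, snoRNA and exon probes on each array (x axis, by strain; replicate 1 arrays left of the dashed line, replicate 2 arrays right of it). Nuclear tRNA medians lie between -0.78 and 0.51 on replicate 1 arrays and below -1.1 on 7 of the 8 replicate 2 arrays, while exon medians stay near 0.

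Nuclear tRNA genes were low on replicate 2 as a class. Their median was between -1.28 and -1.11 on 7 replicate 2 arrays and -0.20 on that of Δssu72. On the replicate 1 arrays of the paired strains it ran from -0.78 in Δctr1 to 0.51 in Δppn1, and among lone arrays from -0.73 in ΔSPCC162.01c to 0.51 in Δpht1. The snoRNA median was between -0.57 and -0.09 on replicate 2 arrays and between -0.14 and 0.69 on their replicate 1 partners, the highest in Δsmd3. The mitochondrial tRNA median overlapped between the replicate numbers, at -1.06 to -0.01 for replicate 2 and -0.66 to 0.03 for replicate 1, and it was positive at 0.48 in ΔSPCC162.01c and 0.40 in Δswd1. Within strains, the median difference of replicate 2 from replicate 1 was negative in 8 of 8 pairs for nuclear tRNA (-1.63 to -0.63), in 8 of 8 for snoRNA (-1.28 to -0.30) and in 7 of 8 for mitochondrial tRNA (-0.80 to 0.08). For exon probes it was negative in 4 of 8 pairs and lay between -0.08 and 0.09.

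A shift of the class with the replicate number was known from earlier results of these data, and the fit for each gene describes how it was spread. limma was fitted to replicate 2 minus replicate 1 with the strain as a block, and p-values were adjusted by Benjamini-Hochberg over 11238 probes with at least 4 complete pairs. Of 97 members tested, 56 (57.7%) were lower on replicate 2 arrays and 0 were higher, against 7.32% of all probes lower and 6.03% higher, and 67 members had an unadjusted p under 0.05. The lower genes were 26 of 43 nuclear tRNA genes, 14 of 25 mitochondrial tRNA genes, 14 of 26 snoRNA genes and 2 of 3 snRNA identifiers. The median difference of the members was -0.61 and that of all probes 0.01. Without the 3 strains that hold an array of doubtful label, 53 of 89 members were lower (59.6% against 3.53% of all probes).

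**Figure D2:**
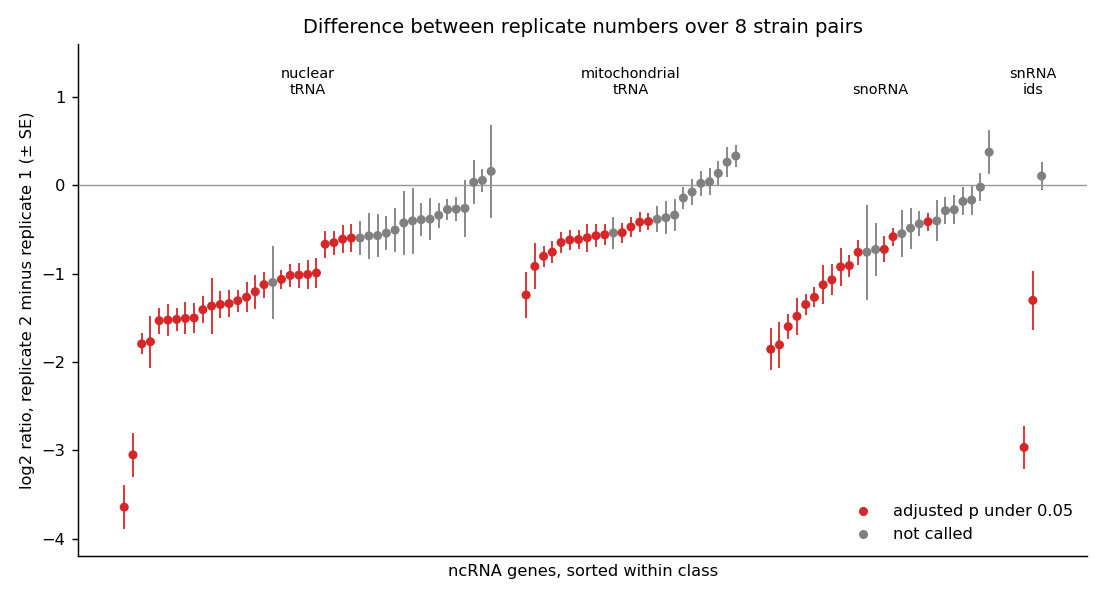
Mean difference in log2 ratio between replicate 2 and replicate 1 arrays over up to 8 strain pairs (y axis; bars are 1 SE) for 97 noncoding genes sorted within class (x axis). Red points have an adjusted p under 0.05; all 56 of them lie below 0, and 2 tRNA genes and snu1 lie near -3 or below.

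The largest mean differences between replicate numbers were those of the nuclear tRNA genes for asparagine, SPBTRNAASN.01 and SPBTRNAASN.04. SPBTRNAASN.01 ranged from -1.98 to 0.87 with a median of -0.39 on the replicate 1 arrays of the paired strains, and from -4.49 to -2.56 with a median of -4.40 on the replicate 2 arrays. The ranges did not overlap, and Δssu72 was the highest of the replicate 2 arrays. The mean difference was -3.64 ± 0.25 (SE, 8 pairs; limma, Benjamini-Hochberg adjusted p = 7.3e-05). SPBTRNAASN.04 ranged from -1.48 to 0.74 on replicate 1 and from -3.88 to -1.74 on replicate 2, a mean difference of -3.05 ± 0.25 (adjusted p = 0.00019). On the lone arrays SPBTRNAASN.01 was 0.04 in Δash2, -0.25 in Δpht1, -0.85 in Δswd1 and -1.90 in ΔSPCC162.01c.

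**Figure D3:**
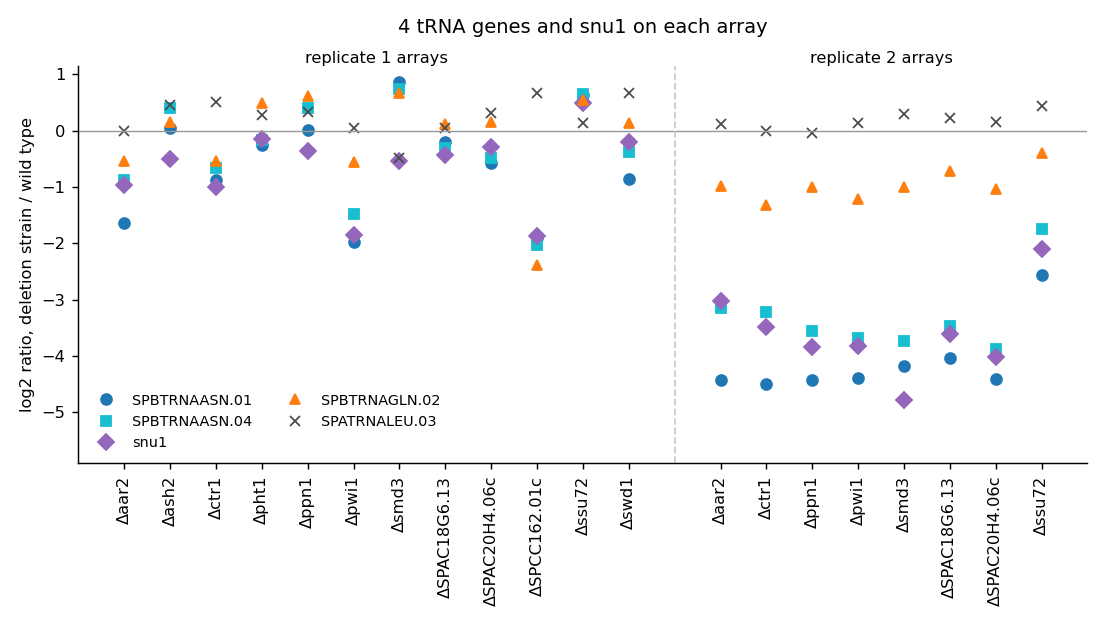
Log2 ratio (y axis) of the tRNA genes SPBTRNAASN.01, SPBTRNAASN.04, SPBTRNAGLN.02 and SPATRNALEU.03 and of snu1 on each of the 20 arrays (x axis, by strain; the dashed line separates replicate 1 from replicate 2). Both asparagine genes and snu1 lie below -3 on 7 of 8 replicate 2 arrays, and SPATRNALEU.03 lies between -0.48 and 0.67 throughout.

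Lower nuclear tRNA genes were found for 13 of the 17 amino acids with a gene that could be tested. The phenylalanine gene SPATRNAPHE.01 lay between -0.45 and 0.75 on replicate 1 and between -1.96 and -0.96 on replicate 2, with a mean difference of -1.79 ± 0.12 (adjusted p = 7.3e-05). All 3 genes tested for tyrosine (-1.41 to -1.27), all 3 for glutamine (-1.37 to -1.01) and both for phenylalanine were lower. The shift was not uniform within an amino acid. For leucine, 3 of 5 genes were lower, with differences from -1.53 to 0.06, and the leucine gene SPATRNALEU.03 lay between -0.48 and 0.67 on all 20 arrays, with a mean difference of 0.06 ± 0.13 (adjusted p = 0.81). For serine, neither of the genes tested was called, at -0.27 and -0.26.

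Some genes for the same amino acid gave almost the same value on every array. SPBTRNAARG.04 and SPCTRNAARG.08, both for arginine, had r = 0.99 over 20 arrays and a median absolute difference of 0.07. SPBTRNAGLN.01 and SPBTRNAGLN.02, both for glutamine, had r = 0.99 and a median absolute difference of 0.09. Over all 43 pairs of nuclear tRNA genes for 1 amino acid with at least 15 shared arrays the median r was 0.68, and it was also 0.68 over 774 pairs for different amino acids. The points of both share arrays, wild-type channel and replicate numbers. On the replicate 1 arrays alone the medians were 0.72 over 27 pairs and 0.55 over 607 pairs. Probe sequences were not used here, so whether such pairs read 1 RNA was not tested.

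Among mitochondrial tRNA genes the threonine gene SPMITTRNATHR.01 had the largest difference. It ran from -0.74 to 1.97 on replicate 1 and from -0.95 to 0.27 on replicate 2, which overlap, and its mean difference was -1.24 ± 0.26 (adjusted p = 0.012). The glutamate gene SPMITTRNAGLU.01 differed by -0.80 ± 0.12 (adjusted p = 0.0024). The tryptophan gene SPMITTRNATRP.01 had the highest difference of the class, 0.33 ± 0.12, and was not called (adjusted p = 0.097).

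Of the snRNA identifiers, snu1, the gene of the U1 snRNA that pairs with the 5' splice site, was as low as the asparagine tRNA genes on replicate 2. It ranged from -1.85 to 0.48 on replicate 1 and from -4.78 to -2.10 on replicate 2, with no overlap and a mean difference of -2.97 ± 0.24 (adjusted p = 0.00019). The lowest value, -4.78, was that of Δsmd3. snu4, the gene of U4, ranged from -2.50 to 0.43 and from -2.67 to -0.50, and its mean difference was -1.30 ± 0.33 over 7 pairs (adjusted p = 0.030). Its replicate ranges overlapped, with Δpwi1 low on both arrays, at -2.50 and -2.37, and Δssu72 at 0.03 and -0.50. snu3 differed by 0.10 ± 0.16 over 5 pairs (adjusted p = 0.70). The other snRNA identifiers had too few values for a test, and on the ΔSPCC162.01c array snu2, snu5 and snu32 were 0.26, 0.19 and -0.08.

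The 14 lower snoRNA genes were snoR69, sno12, snoU14, snoR69b, snoR39b, snoZ15, snoR02, snR30, snoR56, snR41, snoR39a, sno52, snoU18 and snoR58. snoU14 and snR30 act in the cutting of ribosomal RNA precursors. snoU14 lay between -0.22 and 0.76 on replicate 1 and between -1.95 and -1.30 on replicate 2, with a mean difference of -1.60 ± 0.14 (adjusted p = 0.00019), and the groups did not overlap. The largest mean difference was -1.86 ± 0.24 for snoR69 (adjusted p = 0.0013) and the smallest called was -0.41 ± 0.10 for snoR58 (adjusted p = 0.027). The 12 not called were snoZ3, snoZ4, snoZ5, snoZ7, snoZ8, snoZ30, snoU24, snoU24b, snoR38, snoR47, snoR68 and snr62, and they ranged from -0.76 for snr62 to 0.37 for snoR68. Of these, the 5 named snoZ3 to snoZ8 lie within 1 long noncoding RNA gene, snoZ, in the annotation.

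Replicate 2 arrays resembled each other over the members across strains, while replicate 1 arrays did so less. Over the 65 members with a value on all arrays, the correlation between replicate 2 arrays of different strains had a median of 0.89 over 28 pairs and ranged from 0.50 to 0.97. It ranged from 0.79 to 0.97 without Δssu72. Replicate 1 arrays of the same 8 strains had a median of 0.48 over 28 pairs and ranged from -0.12 to 0.80, and with the lone arrays added the median was 0.35 over 66 pairs. The arrays of 1 strain had a median of 0.46 over 8 pairs, and the highest of these was 0.76 for Δpwi1. Over 3967 exon probes the medians were 0.78 for replicate 2 arrays, 0.40 for replicate 1 arrays of the 8 strains and 0.59 for arrays of 1 strain. Each of the 8 replicate 2 arrays was closest to a replicate 2 array of another strain. The points of these correlations share the wild-type channel and probes, and they are given as a description.

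The strain means were then compared with 0, which asks which noncoding RNAs are altered by each deletion. limma was fitted with 1 mean per strain over all 20 arrays, with Benjamini-Hochberg adjustment over all probes measured on every array of the strain, so that a lone array is assumed to vary like the pairs. The ratio against 0 leaves out the spread of the wild type. No member was called in 7 strains. These were Δaar2 with 0 of 97 tested (0.103% of all probes called), Δash2 with 0 of 104 (0.0678%), Δpwi1 with 0 of 94 (1.13%), ΔSPAC20H4.06c with 0 of 85 (0.319%), ΔSPCC162.01c with 0 of 108 (0.0609%), Δssu72 with 0 of 97 (0.363%) and Δswd1 with 0 of 96 (0.408%). At an unadjusted p under 0.05 there were 27, 0, 21, 25, 24, 15 and 1 members in these strains. Calls were made in the other 5 strains, Δctr1, Δpht1, Δppn1, Δsmd3 and ΔSPAC18G6.13. Without the 6 arrays of doubtful label, the calls were 10 in Δaar2 (10.3% of members against 9.52% of all probes), 5 in Δpht1 (5.95% against 6.09%), 8 in Δppn1 (8.6% against 9.13%), 5 in Δpwi1 (5.32% against 5.13%), 6 in ΔSPAC20H4.06c (7.06% against 4.88%) and 1 in Δssu72 (1.03% against 1.22%). There were 20 in Δctr1 on its remaining array (20.8% against 17.5%). limma then called 0 in Δash2 (0.145% of all probes, 4 members at an unadjusted p under 0.05) and 0 in Δswd1 (1.45%, 6 members).

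The number of calls depended on whether the shared difference between replicate numbers was left in the spread. With the replicate number as a block, the calls rose to 33 in Δaar2 (10.8% of all probes called), 31 in Δctr1 (15.9%), 16 in Δppn1 (10.4%), 29 in Δpwi1 (4.31%), 31 in Δsmd3 (27.1%), 35 in ΔSPAC18G6.13 (10.2%), 28 in ΔSPAC20H4.06c (3.86%) and 9 in Δssu72 (3.47%). The higher members were 4 in Δppn1, 8 in Δsmd3, 1 in ΔSPAC18G6.13 and 1 in ΔSPAC20H4.06c, and all other calls in these strains were lower. In this fit the mean of a lone array is moved to the middle of both replicate numbers with the pairs' difference. It called 11 in Δpht1 (7.43%), 31 in ΔSPCC162.01c (4.67%), 2 in Δswd1 (3.11%) and 0 of 101 in Δash2 (0.0694%, 10 at an unadjusted p under 0.05), all lower. In the paired strains the lower calls include the negative values of the replicate 2 arrays that all 8 strains share.

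Δsmd3, labelled as lacking a protein of the Sm ring that binds spliceosomal snRNAs, had the most rises, and all were snoRNA genes. Of 90 members tested 5 rose, 5.56% against 10.9% of all probes, and 0 fell against 8.49%. snoR38 was 2.77 on replicate 1 and 2.98 on replicate 2, with a mean of 2.87 ± 0.36 (SE, n = 2; adjusted p = 0.00060). snoU24b, a guide snoRNA inside the *cpc2* gene, was 1.75 and 2.01, with a mean of 1.88 ± 0.25 (adjusted p = 0.00079). Both were high on both arrays, unlike snoZ5, which was 3.20 and 0.83 with a mean of 2.01 ± 0.51 (adjusted p = 0.017). snoU18 was 1.40 and 0.99 (mean 1.20, adjusted p = 0.012) and snoZ8 was 1.26 and 0.36 (mean 0.81, adjusted p = 0.028).

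Several other snoRNA genes were high on the first Δsmd3 array only. snr62 was 3.55 there and -0.08 on the second, snoR69 was 2.96 and -0.67, snoZ4 was 2.36 and 0.21, and snoZ7 was 2.06 and 0.14. None of these was called without the block, and with the first Δsmd3 array alone 9 members rose (9.47% of 95 against 5.06% of all probes). With the second alone 2 of 100 rose, against 7.08% of all probes, and 5 fell (5% against 5.37%). On the first Δsmd3 array 10 of 24 snoRNA genes lay above 1, more than on any other array, where the count was between 0 and 6.

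**Figure D4:**
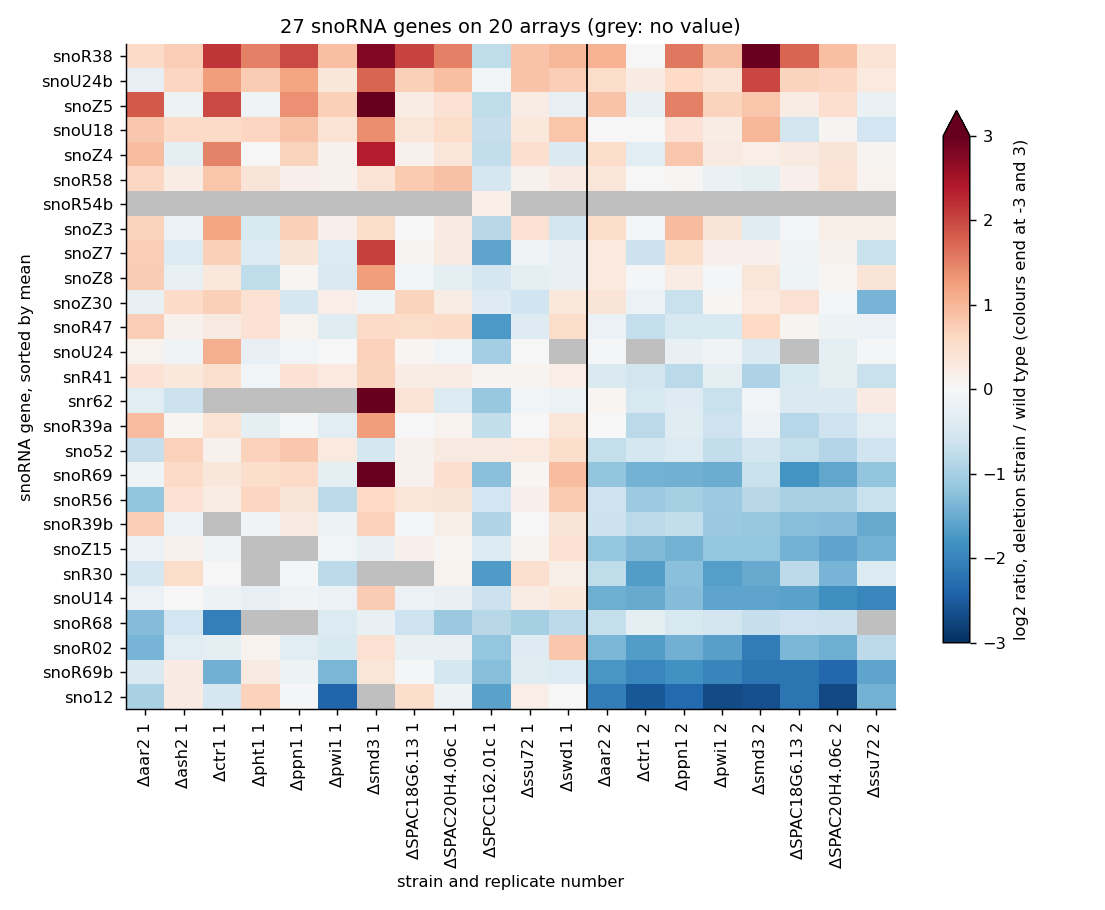
Log2 ratio (colour, red higher and blue lower in the deletion strain, grey without a value) of the 27 snoRNA genes (rows, sorted by mean) on the 20 arrays (columns; the black line separates replicate 1 from replicate 2). snoR38 is red on nearly all arrays and darkest in Δsmd3 at 2.77 and 2.98, and the lower rows are blue on replicate 2 arrays.

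Set against the mean of the other 11 strains, which removes a dye effect common to all arrays, 3 of these members stayed called in Δsmd3 (7.09% of 8382 probes called). They were snoR38 (1.90 ± 0.38, adjusted p = 0.014), snoU24b (1.31 ± 0.26, adjusted p = 0.014) and snoZ8 (0.93 ± 0.24, adjusted p = 0.037). With the replicate block added, 8 of 72 members tested were higher and 0 lower (10.2% called). These were snoU18 (1.02 ± 0.15), snoR38 (1.97 ± 0.36), snoU24b (1.34 ± 0.27), snoR69 (1.82 ± 0.37), snoR39a (0.85 ± 0.21), snoZ5 (1.79 ± 0.46), snoZ7 (1.36 ± 0.36) and snoZ8 (0.93 ± 0.25). The share of members called in either direction, 11.1%, was close to that of all probes, but the directions differed. Higher were 8 of 72 members against 312 of 8382 probes, and lower were 0 members against 539 probes.

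snoR38 was above 0 in other strains as well, and it was called in Δppn1 and ΔSPAC18G6.13. It was 1.99 and 1.58 in Δppn1 (mean 1.78 ± 0.36, adjusted p = 0.026), the 1 member of 93 called there where 1.67% of all probes were higher and 1.66% lower. With trend and robust estimation in limma it was not called in Δppn1 or ΔSPAC18G6.13, and neither was it with either array of those strains alone. It was 2.02 and 1.74 in ΔSPAC18G6.13 (mean 1.88 ± 0.37, adjusted p = 0.020). In Δctr1 the arrays differed, with 2.14 and 0.0046. Of the other arrays of paired strains, those of ΔSPAC20H4.06c gave 1.51 and 0.89, those of Δaar2 0.57 and 1.05, those of Δpwi1 0.91 and 0.89 and those of Δssu72 0.85 and 0.40. Lone arrays gave 1.50 in Δpht1, 0.997 in Δswd1, 0.74 in Δash2 and -0.77 in ΔSPCC162.01c. snoR38 was above 0 on 19 of 20 arrays, and of the members with a value on every array it had the widest range of strain means, 3.64. With the other strains' mean taken off, limma called 0 of 77 members in Δppn1 (0.221% of all probes called, 2 members at an unadjusted p under 0.05). In ΔSPAC18G6.13 it then called 0 of 76 (0.116%, 8 members). The part of the probe or the dye in the value that the strains share was not tested.

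Of the 27 snoRNA genes, 11 lie within the bounds of a protein-coding gene in the annotation, and the intron probes of 5 of those genes could be set beside the snoRNA on at least 15 arrays. The intron 1 probe of SPAC29A4.02c, the gene around snoR38, followed snoR38 over 20 arrays with r = 0.97 (Spearman rho = 0.94) and a median absolute difference of 0.13. Both were high on the Δsmd3 arrays, where the intron read 2.64 and 2.66, and lowest on the ΔSPCC162.01c array, where it read -1.005. The correlation was 0.97 without the Δsmd3 arrays, 0.97 on the 12 replicate 1 arrays and 0.98 on the 8 replicate 2 arrays. The junction probe of the same intron did not follow snoR38 (r = -0.33, 19 arrays). It read 0.22 and -0.41 in Δsmd3 and 1.14 in ΔSPCC162.01c.

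snoU24b was set beside the probes of *cpc2*, the gene of a ribosome-bound scaffold protein. Over 20 arrays r was 0.96 with the intron 2 probe and 0.855 with the intron 1 probe, with median absolute differences of 0.08 and 0.22. Intron 2 of *cpc2* read 1.56 and 1.97 in Δsmd3. The exon 1 to 2 junction probe of *cpc2* had a value on 9 arrays, between -0.19 and 0.38, with r = 0.19 to snoU24b and 0.825 over 8 arrays without Δsmd3. For the intron probes, r without the Δsmd3 arrays was 0.92 with intron 2 and 0.74 with intron 1. The annotation used here gives gene bounds and not introns, and no source used here gives the positions of the probes, so whether an intron probe and a snoRNA probe read the same stretch of RNA was not tested.

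**Figure D5:**
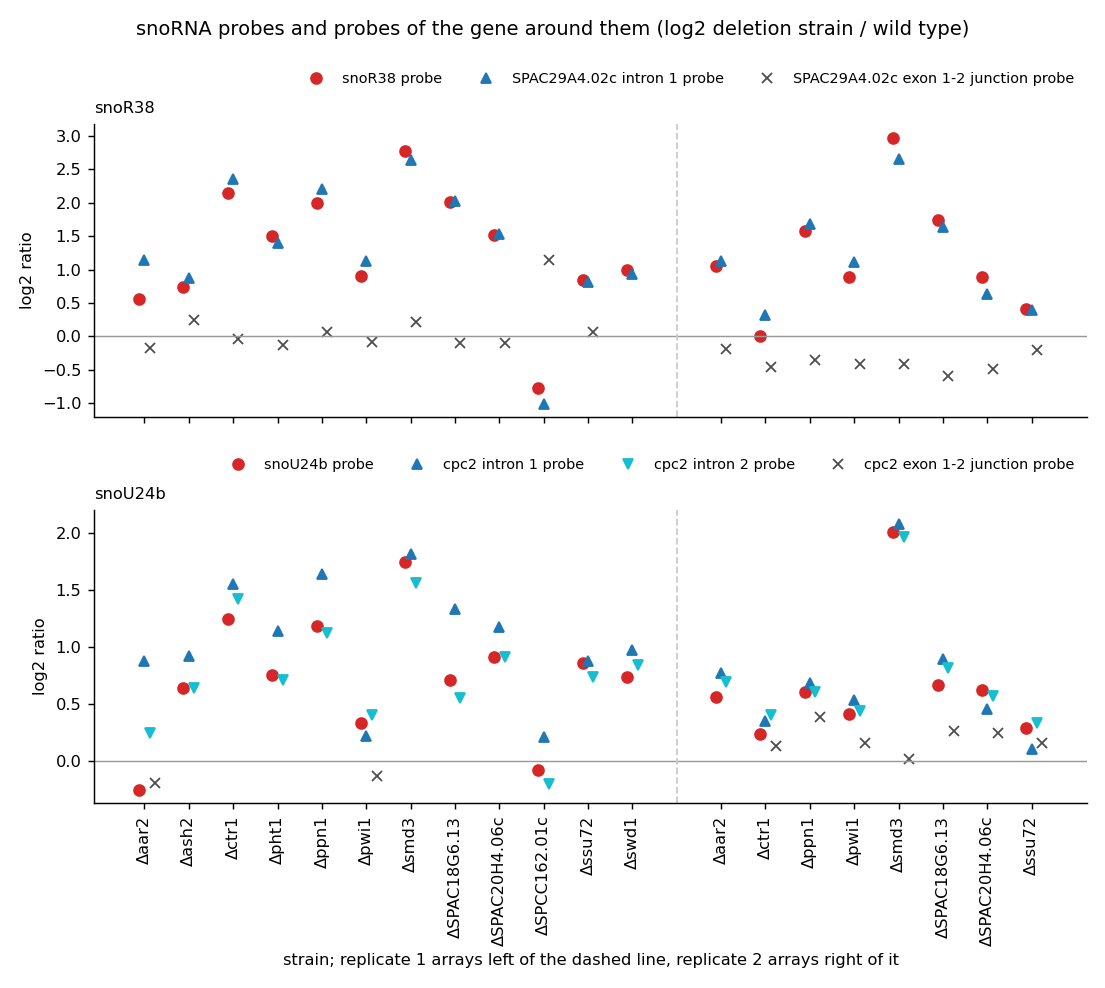
Log2 ratio (y axis) on each array (x axis, by strain) of the snoR38 probe with the intron 1 and junction probes of SPAC29A4.02c (top), and of the snoU24b probe with the 2 intron probes and the exon 1-2 junction probe of *cpc2* (bottom). Each snoRNA probe and the intron probes move together, with r of 0.97 for snoR38 and 0.96 for snoU24b with intron 2, while the junction probes lie between -0.60 and 0.38 apart from a value of 1.14 on the ΔSPCC162.01c array.

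Of the other introns, that of *rlp7* followed snoR39a (r = 0.88, 19 arrays) and that of *rpl701*, a ribosomal protein gene of the large subunit, followed snoR39b (r = 0.84, 19 arrays). snoR39b lay below the *rpl701* intron on each of these arrays, with a median absolute difference of 0.89. The intron 1 probe of *pfd1*, a prefoldin subunit gene, did not follow snoZ15 (r = 0.22, 15 arrays). For the intron 2 probe of *pfd1*, r to snoZ15 was -0.63 over only 6 arrays. snoR39a was 1.26 and -0.18 in Δsmd3, where the *rlp7* intron was 1.56 and 0.20, and 0.92 and 0.02 in Δaar2, where the intron was 1.38 and 0.28. Exon probes of the genes around snoRNAs had a median r of -0.24 over 10 pairs, against 0.855 for 7 intron probes and 0.10 for 7 junction probes.

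The snoRNA genes within snoZ were high on arrays of several strains. snoZ5 was 1.84 and 0.85 in Δaar2, 1.37 and 1.52 in Δppn1, 1.99 and -0.22 in Δctr1, and between -0.77 and 0.71 in the remaining strains other than Δsmd3. snoZ4 was high on the same arrays, with 0.93 and 0.54 in Δaar2, 0.67 and 0.82 in Δppn1 and 1.49 and -0.33 in Δctr1. snoZ3 was 0.56 and -0.37 in Δsmd3 while it was 0.71 and 0.94 in Δppn1. With the replicate block, snoZ3 (0.83 ± 0.23, adjusted p = 0.047), snoU24b (0.90 ± 0.25, adjusted p = 0.045), snoR38 and snoU18 (0.65 ± 0.14, adjusted p = 0.022) were the higher members in Δppn1. All 5 members of the group were below 0 on the ΔSPCC162.01c array, at -1.57 to -0.49.

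In Δctr1, 5 nuclear tRNA genes fell, 5.32% of 94 members tested against 1.43% of all probes, and 0 rose against 1.9%. SPATRNALYS.01, for lysine, was -2.85 on replicate 1 and -1.35 on replicate 2 (mean -2.10 ± 0.44, adjusted p = 0.045). SPBTRNALEU.08, for leucine, was -2.56 and -1.48 (mean -2.02 ± 0.39, adjusted p = 0.040), and *spl1*, for proline, was -2.51 and -1.33 (mean -1.92 ± 0.42, adjusted p = 0.045). SPATRNASER.02, for serine, was -2.78 and -0.94, and SPBTRNALEU.06, for leucine, was -1.96 and -1.34. For each of the 5 the replicate 1 value was the lowest among the arrays with a value for that gene. The replicate 2 values, on the array of doubtful label, were within the range of the other replicate 2 arrays.

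A tail of low nuclear tRNA genes was found on that first Δctr1 array. There 11 of 52 nuclear tRNA genes lay below -2, against 0 to 5 on each of the other 19 arrays. The lowest were SPATRNAILE.02 at -4.49, SPBTRNAARG.05 at -3.31, SPATRNAVAL.02 at -3.04 and SPBTRNAMET.05 at -2.97, and these had values on 3 to 15 of the 20 arrays. Exon probes also had more low values there, with 52 below -2 against 1 to 13 on each other array, and the part of that array in the tRNA values was not tested. The exon probes of the nearest protein-coding genes were not low on that array. On the first Δctr1 array *ppk26* and *pic1*, beside SPBTRNALEU.08, read -0.06 and 0.34, and *arp8*, beside SPATRNALYS.01, read 0.30. On the second array these read -0.18, 0.07 and -0.67. With replicate 1 of Δctr1 alone 17 members were called, 17.5% of 97 against 15.6% of all probes, so the members were called about as often as other probes. With replicate 2 alone limma called 0 (0.0167% of all probes, 17 members at an unadjusted p under 0.05). With the other strains' mean taken off, limma called 0 (0% of all probes), with 4 members at an unadjusted p under 0.05. With trend and robust estimation it called 0 (0.0181% of all probes), with 22 members at an unadjusted p under 0.05.

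Mitochondrial tRNA genes were called lower in 2 strains, ΔSPAC18G6.13 and Δpht1, but low values of the class were not particular to them. The class median of the strain means was -0.76 in ΔSPAC18G6.13, -0.77 in ΔSPAC20H4.06c, -0.58 in Δssu72 and -0.57 in Δaar2. In limma, 19, 19, 12 and 12 of 25 genes had an unadjusted p under 0.05 there. In Δpht1, which lacks the histone variant H2A.Z, SPMITTRNALEU.01 was -1.33 (adjusted p = 0.031) and SPMITTRNAPRO.01 was -1.11 (adjusted p = 0.049) on its 1 array, 2.38% of 84 members lower against 3.38% of all probes and 0 higher against 1.01%. The class median on that array was -0.58 while that of nuclear tRNA genes was 0.51. In ΔSPAC18G6.13, the members called lower were SPMITTRNACYS.01 (-1.03 and -1.53, mean -1.28 ± 0.26, adjusted p = 0.022), SPMITTRNAVAL.01 (-0.69 and -1.50, adjusted p = 0.0499), SPMITTRNAPRO.01 (-1.02 and -1.02, adjusted p = 0.022), the leucine gene SPBTRNALEU.06 (-0.995 and -1.46, adjusted p = 0.040) and snu3 (-1.27 and -0.77, adjusted p = 0.024). These 5 were 5.43% of 92 tested against 1.7% of all probes, and snoR38 was the 1 member higher, 1.09% against 2.36%. SPMITTRNACYS.01 was also -0.92 and -1.37 in Δaar2 and -0.70 and -1.37 in ΔSPAC20H4.06c, and with the other strains' mean taken off limma called 0 members in ΔSPAC18G6.13 (0.116% of all probes) or Δpht1 (0.515%), with 8 in each at an unadjusted p under 0.05.

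The array labelled ΔSPCC162.01c had a set of members apart from the other strains. Over the 65 complete members its correlation with the replicate 1 array of Δssu72 was -0.31, the lowest of any 2 arrays. Against the mean of the other strains with the replicate block, 2 members were higher and 11 lower of 78 tested, 16.7% against 2.64% of all probes, and without the block limma called 0 (0.149% of all probes), with 20 members at an unadjusted p under 0.05. The lower nuclear tRNA genes were SPBTRNAGLN.02 (-2.38 on the array, difference -2.49 ± 0.30, adjusted p = 0.0071), SPBTRNAGLN.01, SPATRNAASP.01, SPBTRNAARG.04, SPCTRNAARG.08 and SPBTRNAGLY.09. The lower snoRNA genes were snoR38, snoR47 (-1.72 on the array), snoU18, snoR39b and snoR58. The mitochondrial genes SPMITTRNASER.01 (1.06) and SPMITTRNALYS.01 (0.98) were higher. With 1 array, these values have no replicate check, and the deleted gene's exon probe did not fall on it. The block also shifts this lone array by the pairs' difference, so the blocked differences hold part of that shift. Without the block the median difference was -0.38 for nuclear tRNA, -0.69 for snoRNA and 0.75 for mitochondrial tRNA genes. With the block these medians were -0.83, -0.97 and 0.69.

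Contrasts between strain groups, in which a dye effect common to all arrays cancels, called 0 members. The silencing-linked strains minus the splicing-factor strains gave 0 of 71 (0.0444% of all probes called, 1 member at an unadjusted p under 0.05). The 3' end factors minus the splicing factors gave 0 of 75 (1.2%, 5 members at an unadjusted p under 0.05). With the replicate block the first stayed at 0 (0.0888%, 6 members at an unadjusted p under 0.05), and the second had 2 higher (1.91%). These were the tyrosine gene SPBTRNATYR.02 (1.02 ± 0.20, adjusted p = 0.027) and the arginine gene SPATRNAARG.02 (0.84 ± 0.17, adjusted p = 0.037). On replicate 2 arrays SPBTRNATYR.02 was 0.49 in Δssu72 and -1.33 in Δppn1, against -1.78 to -1.26 in the 3 splicing-factor strains, so the high value was that of Δssu72.

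Exon probes of genes that make or remove noncoding RNA were mostly not called. Of 9 probes for snoRNP proteins, limma called 0 in any strain (Benjamini-Hochberg over all probes, as above), with 1 to 3 per strain at an unadjusted p under 0.05. Of 13 for the nuclear exosome, which trims and degrades nuclear RNA, *csl4* rose in Δsmd3 (0.65 ± 0.19, adjusted p = 0.036). In that strain 7.61% of exon probes were called. The median of the exosome probes lay below that of all exon probes in every strain, from -0.43 in Δswd1 to -0.09 in Δsmd3. The snoRNP median did so in all strains but Δsmd3, and neither was tested. Of 16 for nuclear RNA silencing and polyadenylation complexes, *cbc2* fell (-0.71) and *red5* rose (0.79) in Δpht1, and *ctr1* was low in its own deletion. Of 12 for RNAi, *stc1* fell in Δctr1 (-0.77) and *ers1* rose in Δpwi1 (0.96). Of 19 for 3' end formation, *ysh1* rose in Δsmd3 (0.54), and *ppn1* and *ssu72* were low in their own deletions.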

How the data were processed

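For each probe of an array, the deposited tables hold a log2 ratio, and the 2045 values of the noncoding genes were the same in both tables. The labels and the study's methods give the dyes, growth and labelling of total RNA, while how the authors scanned, corrected and normalized the arrays, or left cells empty, was not stated in those sources. Values were used without further scaling, empty cells stayed missing, and 536 control spots were left out. Gene names came from RefSeq (ASM294v3), whose coordinates were not printed because the sources do not name the build of the probes.

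Strain means were tested against 0 with limma 3.58.1 in R 4.3.3, with 1 mean per strain over 20 arrays. Benjamini-Hochberg adjustment ran over all probes measured on all arrays of a strain, and members were called at an adjusted p under 0.05. The number of arrays limits the precision. Replicate numbers come from the labels. The replicate 2 minus replicate 1 differences of the members correlated between every 2 of the 8 strains (r = 0.37 to 0.93), and those of all probes at 0.08 to 0.77, so fits with the replicate number as a block stand beside the others. The fits were also run on simulated data with independent noise, with known changes and a replicate shift in probes drawn at random. A shift of a whole class, as on these arrays, was not simulated, so the runs do not test that setting.

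Named genes are the 3 called with the largest rise and fall in each strain and contrast, the 5 with the widest range of strain means, every member with the symbol of a known RNA, and the exon probes of genes beside those called. No member had 1 sign on all 20 arrays. Other members, and the replicate 2 minus replicate 1 fit, were chosen after their values were seen. The members, lists and tests were chosen with earlier results of these data known. Alternatives were centring on exon probes, fewer probes, trend and robust estimation, the strain's own arrays, the other strains' mean, the replicate block, and leaving out arrays.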

Additional observations from a re-analysis of the deposited data

Results flagged for a closer look

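Members whose value in 1 strain differed from the mean of the other 11 strains by limma (Benjamini-Hochberg adjusted p under 0.05) are listed here. In the fit without the replicate block they were found in Δsmd3 only, on 2 arrays whose label is in doubt, with differences of 0.93 for snoZ8, 1.31 for snoU24b and 1.90 for snoR38 (Δsmd3 values higher on 2 of 2 arrays for each). With the replicate number as a block, the Δsmd3 differences were 0.93 for snoZ8, 1.36 for snoZ7, 1.79 for snoZ5, 1.34 for snoU24b, 1.97 for snoR38, 1.82 for snoR69, 1.02 for snoU18 and 0.85 for snoR39a.

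In the same blocked fit the 1 array labelled ΔSPCC162.01c was higher for SPMITTRNALYS.01 by 1.24 and for SPMITTRNASER.01 by 1.35. Its nuclear tRNA differences were -1.89 for SPATRNAASP.01, -1.80 for SPBTRNAARG.04, -2.44 for SPBTRNAGLN.01, -2.49 for SPBTRNAGLN.02, -1.61 for SPBTRNAGLY.09 and -1.76 for SPCTRNAARG.08. Its snoRNA differences were -2.22 for snoR38, -0.95 for snoR58, -1.11 for snoR39b, -1.35 for snoU18 and -2.01 for snoR47. Part of these differences is the pairs' replicate difference, by which the block shifts this lone array. The deleted gene's exon probe was 0.59 on this array, and the part of the array or its label in these values was not tested. With 1 or 2 arrays per strain, no group was large enough to test single arrays as outliers.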

How the results depend on the processing

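Among counts and medians set against an alternative, 125 stayed within the limits used and 45 moved. Among values of single genes, 98 kept their call and 45 lost it, and none of these turned direction. With the replicate block the number of members called was 33 in Δaar2, 31 in Δctr1, 11 in Δpht1, 16 in Δppn1, 29 in Δpwi1, 31 in Δsmd3, 35 in ΔSPAC18G6.13, 28 in ΔSPAC20H4.06c, 31 in ΔSPCC162.01c, 9 in Δssu72, 2 in Δswd1 and 2 between 3' end and splicing factors. With the other strains' mean taken off it was 3 in Δsmd3 and 0 in Δctr1, Δpht1, Δppn1 and ΔSPAC18G6.13. With both together it was 8 in Δsmd3, 13 in ΔSPCC162.01c and 0 in Δctr1, Δpht1, Δppn1 and ΔSPAC18G6.13. With trend and robust estimation it was 0 in Δctr1, 1 in Δpht1, 0 in Δppn1 and 0 in ΔSPAC18G6.13. With only probes measured on all arrays, it was 1 in Δaar2 and 0 in Δctr1.

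Without the 6 arrays of doubtful label, it was 10 in Δaar2, 20 in Δctr1, 5 in Δpht1, 8 in Δppn1, 5 in Δpwi1, 6 in ΔSPAC20H4.06c and 1 in Δssu72. Fitted on the strain's own arrays, it was 61 in Δaar2, 0 in Δctr1, 3 in Δppn1, 49 in Δpwi1, 23 in ΔSPAC18G6.13, 8 in ΔSPAC20H4.06c and 6 in Δssu72. Centring on exon probes gave 2 in Δppn1, and exon and noncoding probes alone gave 3 in Δsmd3. With both the other strains' mean taken off and the block, 0.0117% of all probes were called in Δctr1, 0.233% in Δppn1 and 0.185% in ΔSPAC18G6.13. The share of all probes called is not given for the strain's own arrays, exon centring or fewer probes. Nor is it given for both adjustments together in Δpht1, or for trend and robust estimation outside Δctr1. Those counts therefore cannot be read as particular to the members. The causes were not tested. Leaving out 1 array of the strain gave 0 (without replicate 1) to 17 (without replicate 2) in Δctr1. In Δsmd3 it gave 7 (without replicate 1) to 9 (without replicate 2). These Δsmd3 counts join both directions, since most of the 7 were lower and all of the 9 were higher. The range therefore does not show that the rises were stable. For Δctr1 and Δsmd3 the shares of all probes in these fits are given in the Results. It gave 0 to 0 in Δaar2, Δppn1, Δpwi1, ΔSPAC18G6.13, ΔSPAC20H4.06c, Δssu72 and both contrasts. Leaving out 1 pair gave 44 to 61 members called between the replicate numbers. For these fits, and for the strains and contrasts just named, the share of all probes called is not given. The mean of a strain's array medians moved by less than the spread between replicates with exon centring, the other deposited table or members measured on all arrays, while with replicate 1 alone it turned from -0.27 to 0.29 in Δppn1 and from -0.24 to 0.13 in Δssu72. The median of the fitted members turned with the replicate block from 0.14 to -0.29 in Δash2, from 0.21 to -0.39 in Δpht1 and from 0.26 to -0.05 in Δswd1, lone arrays that this fit shifts. With the other strains' mean taken off it turned from -0.28 to 0.13 in Δsmd3 and from -0.26 to 0.06 in Δppn1. The depth of the arrays, as signal over background, is unknown.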
